A study of Mus musculus with 4 samples.

Results

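Aminoacyl-tRNA synthetases are the enzymes that attach each amino acid to its transfer RNA, and so supply the ribosome with charged tRNA. Animal cells carry separate nuclear genes for the enzymes that work in the cytosol and for those that work on tRNAs of the mitochondrion, the latter mostly named with the suffix 2. Many cytosolic synthetase genes are known targets of ATF4, the transcription factor of the integrated stress response, which also induces amino acid transporters and amino acid synthesis. The members were the symbols made of any capital letter followed by "ars", with or without a final 1 or 2, together with Eprs, Ears2, Farsa, Farsb, Aimp1 and Aimp2. The rule found 39 of 24344 distinct symbols. They comprised 18 cytosolic synthetase genes, 17 mitochondrial ones, 2 that encode both forms (Gars for glycine and Kars for lysine), and the 2 scaffold genes Aimp1 and Aimp2 of the multisynthetase complex.

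Polyadenylated RNA was sequenced from the aorta of C57BL/6 mice aged 3 weeks, with 2 libraries from wild-type mice (label WT) and 2 from mice with a knockout (label KO) of Ggps1, which encodes geranylgeranyl diphosphate synthase (GGPPS). This enzyme makes the lipid that anchors many small GTPases to membranes. The labels name both sexes for every library, and the cell type of the deletion is not given in any source used here. Values are FPKM, fragments scaled for gene length and library size, and all library names below are numbers within a genotype that pair nothing. Depth per library is unknown, so precision rests on the spread between 2 libraries. Ggps1 was at 8.96 and 10.6 FPKM in wild type, against 1.18 and 1.07 in knockout, in the direction of the labels. The FPKM of a library summed to 515927 and 520478 in wild type and to 611767 and 632918 in knockout. In whole aorta, fewer cells of a type and less RNA per cell cannot be told apart. Summed marker levels of macrophages ranged from 98.3 to 103.0 FPKM in wild type and from 484.3 to 564.5 in knockout. Of the 12 markers, 10 were called higher and 1 lower. Summed leukocyte markers ranged from 16.8 to 18.1 FPKM in wild type, against 202.9 to 252.3 in knockout. The 10 markers of contractile smooth muscle summed to between 21009 and 23385 FPKM in wild type, against 4966 to 6587 in knockout (10 of 10 lower), and 8 of 9 tested endothelial markers fell. Of 8 fibroblast markers, 2 were called higher and 5 lower. Of all genes tested, 35.2% were called higher and 30.6% lower. Markers of T and NK cells, B cells and adipocytes summed to 1.29 FPKM or less per list in every library. The 15 genes of the G2/M phase summed to 22.2 and 17.1 FPKM in wild type, against 166.7 and 165.2 in knockout. Of the markers tested, 2 of 12 for macrophages, 4 of 10 for leukocytes and 6 of 15 for G2/M averaged under 1 FPKM in wild type. They met the filter of 1 FPKM in 2 libraries only with the knockout libraries. Leukocyte markers with a higher mean, such as Coro1a (1.275 and 0.833 FPKM in wild type) and Lcp1 (0.9034 and 1.289), needed the knockout libraries as well. The counts of calls in these 3 lists therefore support nothing. The part of these shifts in the synthetase values was not tested.

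RefSeq promoter windows, running from 250 bases before to 50 bases after a transcription start (build GRCm38.p6, the assembly of mm10), were matched for 29 of the 39 members. Members without a matched window included Cars, Hars, Lars, Nars, Rars, Vars, Wars, Hars2 and Pars2. The letters TGATGNAA, the core of the element that ATF4 binds with a C/EBP partner, were searched on both strands, where N is any base. They occurred in 1219 of 27025 genes with a window (4.51%), in 4 of 11 cytosolic synthetase genes, in 1 of the 2 genes for both compartments and in 0 of 14 mitochondrial genes. The 5 genes that hold them, Aars, Gars, Iars, Tars and Yars, were called higher in knockout. So were 6 of the 8 cytosolic or dual genes whose window held no match (Eprs, Farsa, Farsb, Kars, Mars and Sars, but not Dars and Qars) and 7 of 7 without a window. Of all genes tested, 35.2% were called higher, and the difference among these groups of synthetase genes was not tested. The 30-base stretches around the matches in Gars, Iars, Tars and Yars are shown for their letters. Each is written 5′ to 3′ in the direction of its gene with the motif, or its reverse complement, in capitals.
Gars, chr6:55037960-55037989, plus strand: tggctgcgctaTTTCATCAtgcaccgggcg
Iars, chr13:49682126-49682155, plus strand: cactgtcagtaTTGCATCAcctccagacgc
Tars, chr15:11399655-11399684, minus strand: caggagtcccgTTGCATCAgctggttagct
Yars, chr4:129189895-129189924, plus strand: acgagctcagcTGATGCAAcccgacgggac
The match in Gars lay upstream of the start and outside any annotated exon, while the other stretches shown overlapped an exon of at least 1 annotated transcript. A match is a description of the letters and not of binding. The palindrome CACGTG, the E-box letters read alike on both strands, was in the windows of Aars, Farsb, Iars, Tars and Ears2. These are 5 of 29 members (17.2%), against 8.09% of all genes, with 4 of 11 cytosolic and 1 of 14 mitochondrial genes. The difference was not tested. These 2 motifs did not overlap in any member's window. Another motif, an interferon response element, was searched as well and dropped after its result was known, and that result is not given here.

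The comparison of knockout with wild type asked how the 2 families of synthetase genes differed between genotypes. Most cytosolic enzymes were higher in knockout, while the mitochondrial enzymes were split. Of the 18 cytosolic genes, 16 were higher and 0 lower at a limma adjusted p under 0.05, with the p-values adjusted over all 12314 genes that reached 1 FPKM in at least 2 libraries. The background of that comparison was high: 35.2% of all tested genes were called higher and 30.6% lower. No cytosolic gene was lower at an unadjusted p under 0.05 either. The 17 mitochondrial genes were split into 6 higher, 2 lower and 9 not called, so that their share of higher calls was close to the background. The median log2 fold change, on the scale of log2(FPKM + 1) and knockout minus wild type, was 0.96 for cytosolic genes, 0.03 for mitochondrial genes and 0.03 for all genes tested.

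All 39 members were at 1 FPKM or more in every library, so none passed the filter through 1 genotype alone. The summed level of the 18 cytosolic genes was 415.8 and 412.3 FPKM in wild type, against 783.9 and 876.7 in knockout, a ratio of means of 2.00. Their share of a library's FPKM was 0.0806% and 0.0792% in wild type, against 0.128% and 0.139% in knockout. The summed level of the mitochondrial genes other than Lars2, which is treated on its own below, was 105.5 and 102.9 FPKM in wild type, against 118.4 and 126.5 in knockout, a ratio of means of 1.18. Mean levels of the cytosolic genes spanned 10.9 to 43.1 FPKM in wild type, and those of the mitochondrial genes without Lars2 spanned 1.49 to 16.2. Both knockout libraries lay above both wild-type libraries for 16 of 18 cytosolic and 7 of 17 mitochondrial genes, as they did for 43.6% of all genes tested. They lay below for 0 cytosolic and 3 mitochondrial genes, against 39.6% of all genes tested.

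**Figure D1:**
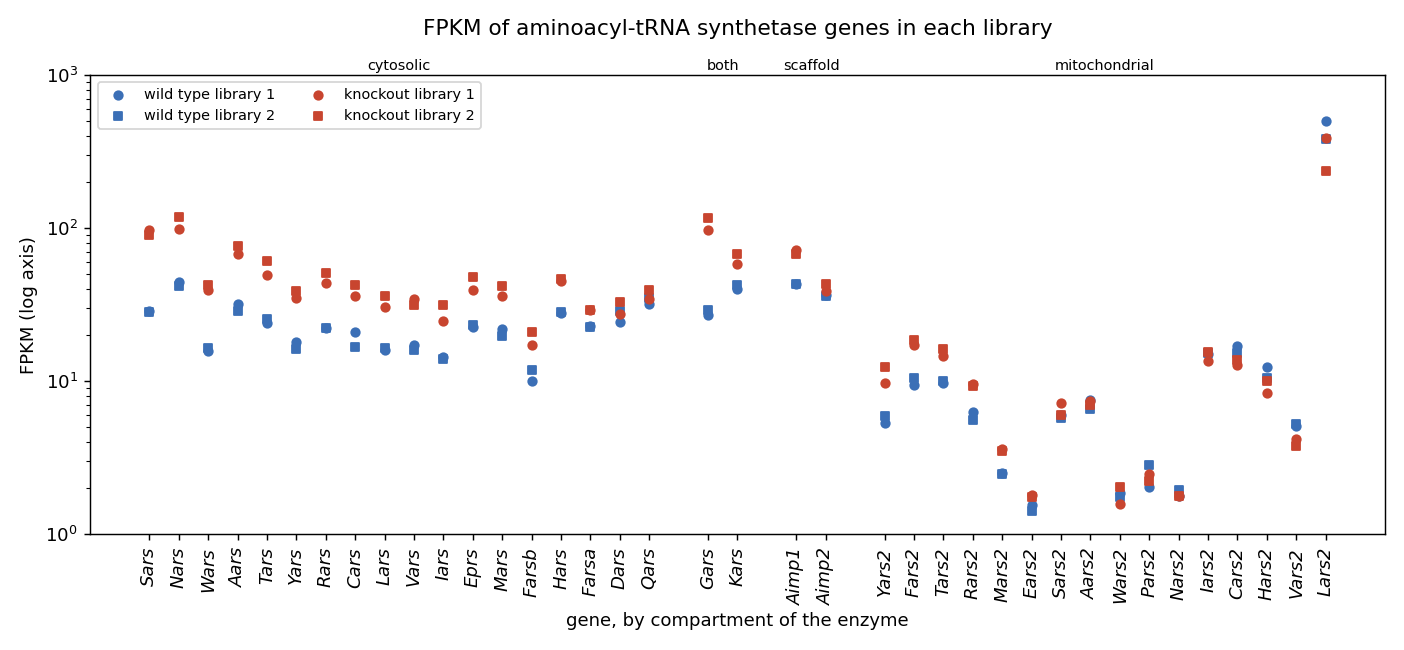
FPKM of 38 of the 39 members (log axis) in the 4 libraries, by compartment of the enzyme and by falling log2 fold change within it; blue is wild type, red is knockout, circles are library 1 and squares library 2. The red points lie above the blue ones for 16 of 18 cytosolic genes, while Lars2 stands alone at 237 to 499 FPKM among the mitochondrial genes.

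Gars, which charges glycine tRNA in both the cytosol and the mitochondrion (GRCm38 chromosome 6, 55038007 to 55079500, plus strand, 17 exons in its longest coding transcript), showed the largest fold change of the 39 members. It stood at 26.9 and 29.0 FPKM in wild type, against 97.7 and 116 in knockout. The genotypes did not overlap, and the mean rose 3.83-fold (log2 fold change 1.90, SE 0.11, limma adjusted p = 6.99e-09). Sars, the seryl-tRNA synthetase (chromosome 3, 108424865 to 108445209, minus strand, 11 exons), was at 28.9 and 28.5 FPKM in wild type, against 97.0 and 89.8 in knockout, without overlap. Its mean rose 3.25-fold (log2 fold change 1.67, SE 0.10, limma adjusted p = 9.33e-09). Kars, the other gene for both compartments, charges lysine tRNA and rose less. It was at 39.9 and 42.6 FPKM in wild type, against 58.1 and 68.0 in knockout, 1.53-fold higher (log2 fold change 0.60, SE 0.11, limma adjusted p = 0.0003).

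Nars, for asparagine, was at 44.5 and 41.7 FPKM in wild type, against 99.1 and 118 in knockout, 2.52-fold higher. It was the cytosolic synthetase gene with the highest mean level in both genotypes. Wars, for tryptophan, an enzyme also known to be induced by interferon-gamma, was at 15.8 and 16.4 FPKM in wild type, against 39.1 and 42.4 in knockout (log2 fold change 1.29, SE 0.11, limma adjusted p = 1.99e-07). Of 16 listed genes of the interferon-gamma response, 13 were tested. In the same libraries 12 of the 13 were called higher, against 35.2% of all genes tested. At least 2 of the 13 met the filter only with the knockout libraries, so this count supports nothing. Irgm1, an immunity-related GTPase of that list, was at 5.02 and 5.26 FPKM in wild type, against 35.5 and 37.5 in knockout. The part of that response in the Wars level was not tested. Aars, for alanine, was at 32.1 and 28.6 FPKM in wild type, against 67.2 and 76.9 in knockout (log2 fold change 1.22). Tars, for threonine, was at 24.0 and 25.6 FPKM in wild type, against 49.5 and 60.7 in knockout (log2 fold change 1.11). In all 4 of these genes the lowest knockout value lay above the highest wild-type value.

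Yars, for tyrosine, was at 17.9 and 16.3 FPKM in wild type, against 34.8 and 38.6 in knockout. Rars, for arginine, was at 22.3 and 22.2 FPKM in wild type, against 43.6 and 51.2 in knockout. They rose by 1.06 and 1.05 on the log2 scale, with limma adjusted p of 2e-06 and 2.1e-06. A log2 fold change of at least 1 with an adjusted p under 0.05 was reached by 8 of 18 cytosolic genes, against 10.9% of all genes tested, and by 0 of 17 mitochondrial genes. The eighth was Cars, for cysteine, at 20.9 and 16.8 FPKM in wild type, against 36.0 and 42.3 in knockout. Below that size, Lars (leucine), Vars (valine), Iars (isoleucine), Eprs (glutamate and proline), Mars (methionine), Farsb (a phenylalanyl-tRNA synthetase subunit) and Hars (histidine) rose by log2 fold changes of 0.98, 0.94, 0.94, 0.89, 0.86, 0.75 and 0.68. Mars shares 68 exonic bases, 2.0% of its exonic sequence, with the opposite-strand gene Ddit3, which stood at 36.4 and 41.6 FPKM in wild type, against 178 and 203 in knockout. No source used here says whether strand was used in counting, so reads from that stretch cannot be told apart.

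Dars and Qars were the 2 cytosolic genes whose genotypes overlapped. Dars, for aspartate, was at 24.4 and 28.7 FPKM in wild type, against 27.5 and 32.9 in knockout (log2 fold change 0.18, SE 0.12, limma adjusted p = 0.218). Qars, for glutamine, was at 32.0 and 35.2 FPKM in wild type, against 34.4 and 39.4 in knockout (log2 fold change 0.13, SE 0.11, limma adjusted p = 0.324). With column totals made equal, which moved the median of all tested genes from 0.03 to -0.20 and the split of calls to 25.1% higher and 45.6% lower, both values fell below 0 (-0.077 for Dars and -0.13 for Qars). Farsb was at 10.0 and 11.9 FPKM in wild type, against 17.3 and 21.0 in knockout, without overlap. Farsa, the other subunit of phenylalanyl-tRNA synthetase, was at 22.9 and 22.7 FPKM in wild type, against 29.0 and 29.0 in knockout. Its call (log2 fold change 0.33, limma adjusted p = 0.0129) ended with equal totals (0.079, adjusted p = 0.478), once length and GC trends were taken out (0.16, adjusted p = 0.151) and on removal of wild-type library 1 or 2 (0.11 and 0.128).

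**Figure D2:**
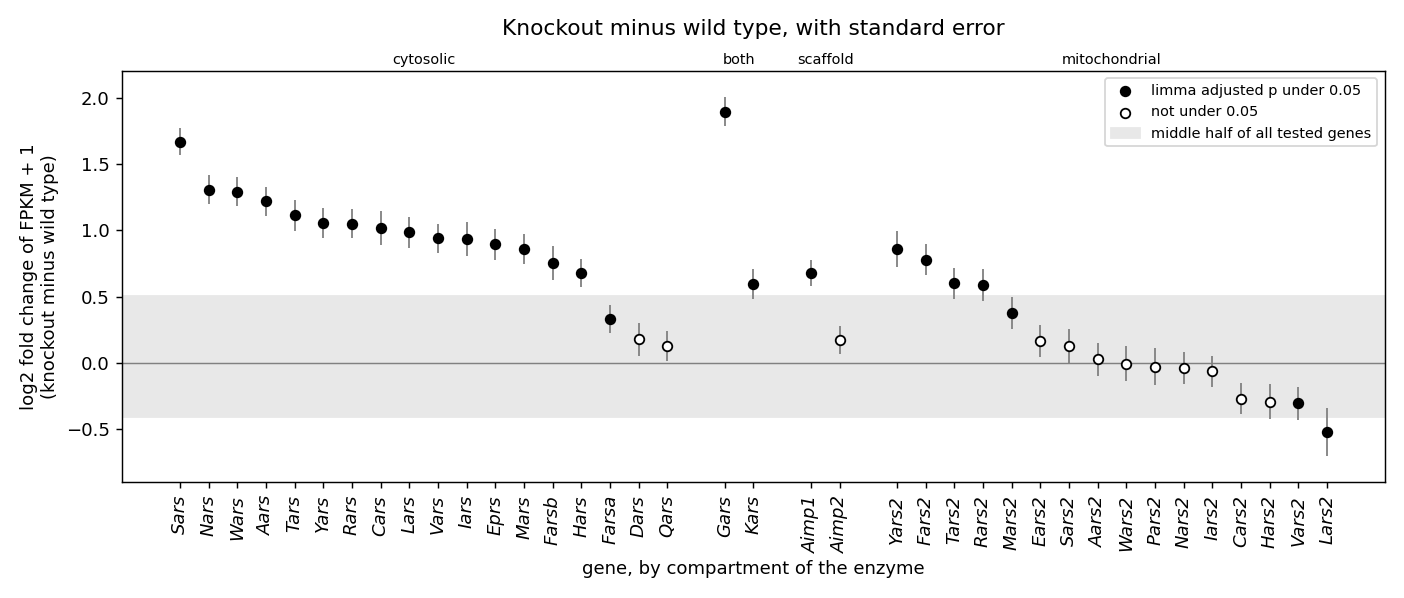
Log2 fold change of FPKM + 1 (knockout minus wild type) for 38 of the 39 members, each with its standard error from limma; filled points have an adjusted p under 0.05, and the grey band is the middle part, between the lower and upper quartile, of all 12314 tested genes. The cytosolic genes run from 0.13 to 1.67 and the mitochondrial genes from -0.52 to 0.86.

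The cytosolic enzymes differ in how they are organised. The multisynthetase complex joins the enzymes for aspartate, glutamate and proline, glutamine, isoleucine, leucine, lysine, methionine and arginine on the scaffolds Aimp1, Aimp2 and Eef1e1. Counting Kars and Gars with the cytosolic genes, the 8 enzymes of the complex had a median log2 fold change of 0.88 with 6 called higher, and the 12 enzymes outside it a median of 1.09 with 12 called higher. Of all genes tested, 35.2% were called higher, and the difference between these sets was not tested. The scaffold Aimp1 was at 43.1 and 43.2 FPKM in wild type, against 72.2 and 67.2 in knockout (log2 fold change 0.68, limma adjusted p = 4.6e-05). Aimp2 was at 36.4 and 35.9 FPKM in wild type, against 39.0 and 43.1 in knockout (log2 fold change 0.18, limma adjusted p = 0.156), and it shares 29.4% of its exonic bases with Eif2ak1 on the opposite strand. Eef1e1, the third scaffold, which the symbol rule did not include, was at 9.52 and 14.4 FPKM in wild type, against 44.8 and 40.1 in knockout (log2 fold change 1.77, limma adjusted p = 2.86e-07). The scaffolds thus showed unequal shifts, from 0.18 to 1.77 on the log2 scale.

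A split by the structure of the active site separated the genes less. Class I enzymes, which share a Rossmann fold, had a median log2 fold change of 0.98 with 8 of 9 higher. Class II enzymes had a median of 0.93 with 9 of 10 higher, against 35.2% of all genes tested. Eprs joins an enzyme of each class in a single protein and was left out of that split. A split by textbook ATF4 targets, a grouping from background knowledge made with earlier results of these data known, gave 13 genes, all called higher, with a median of 1.06 and a range of 0.86 to 1.90. The other 7 genes (Dars, Farsa, Farsb, Hars, Kars, Qars and Rars) had 5 called higher, a median of 0.60 and a range of 0.13 to 1.05. Rars, at 1.05, lay among the values of the first group. No test of the difference between these groups was made, and 35.2% of all genes tested were called higher. Since the ATF4 grouping was made with results known, its direction is no independent support.

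The mitochondrial genes held 6 that rose. Yars2, for tyrosine, was at 5.32 and 5.94 FPKM in wild type, against 9.77 and 12.4 in knockout, 1.97-fold higher (log2 fold change 0.86, SE 0.14, limma adjusted p = 7.54e-05). Fars2, the mitochondrial phenylalanyl-tRNA synthetase, was at 9.48 and 10.5 FPKM in wild type, against 17.2 and 18.6 in knockout (log2 fold change 0.78, limma adjusted p = 5.15e-05). Tars2, for threonine, was at 9.68 and 10.0 FPKM in wild type, against 14.7 and 16.3 in knockout. Rars2, for arginine, was at 6.29 and 5.61 FPKM in wild type, against 9.56 and 9.29 in knockout. In these 4 genes the genotypes did not overlap, and the log2 fold changes of Tars2 and Rars2 were 0.60 and 0.59. The Rars2 call was lost once length and GC trends were taken out (0.25, limma adjusted p = 0.051). Mars2, for methionine, was at 2.53 and 2.47 FPKM in wild type, against 3.62 and 3.48 in knockout, and rose by 0.38 on the log2 scale. The call of Mars2 was lost in 3 of 12 alternatives, including the removal of wild-type library 1 or 2 (limma adjusted p = 0.0732 and 0.0956).

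Of the other mitochondrial genes, Lars2 stood apart in level. Lars2, the mitochondrial leucyl-tRNA synthetase (chromosome 9, 123366927 to 123462666, plus strand, 21 exons), was at 498.6 and 381.2 FPKM in wild type, against 387.6 and 237.2 in knockout. No other mitochondrial gene was above 18.6 FPKM (Fars2) in any library, and the cytosolic gene Lars was at 16.0 to 35.8. The genotypes overlapped, since knockout library 1 lay above wild-type library 2. Lars2 was counted as lower (log2 fold change -0.52, SE 0.18, limma adjusted p = 0.0202), and this call ended without wild-type library 1 (-0.33, adjusted p = 0.0524), without knockout library 2 (-0.17, adjusted p = 0.403), with no filter (0.156), with robust estimation (0.318) and with length and GC trends removed (0.126). Rn45s, the precursor of ribosomal RNA, was at 3353 and 1942 FPKM in wild type, against 2979 and 1317 in knockout. The 4 libraries stood in the same order by Lars2 and by Rn45s: wild-type library 1, knockout library 1, wild-type library 2 and knockout library 2. Its part in the Lars2 level was not tested.

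**Figure D3:**
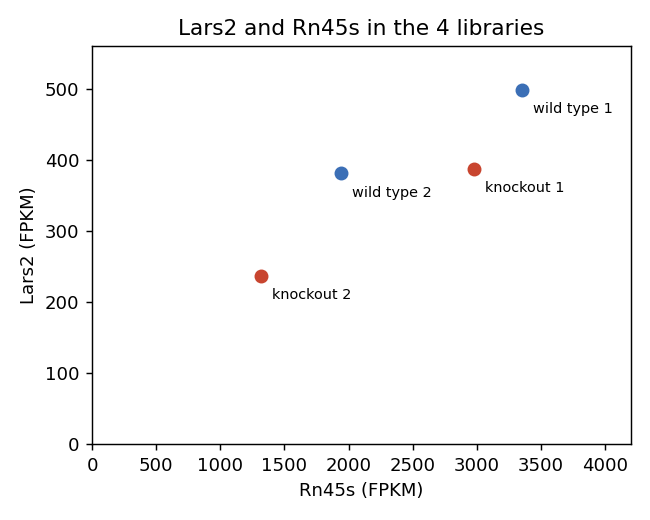
Lars2 against Rn45s, both in FPKM on linear axes from 0, with 1 point per library; blue is wild type and red is knockout. Within each genotype the library with more Rn45s had more Lars2, 498.6 against 381.2 FPKM in wild type and 387.6 against 237.2 in knockout.

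Vars2, for valine, was the other mitochondrial gene counted as lower. It was at 5.09 and 5.22 FPKM in wild type, against 4.22 and 3.76 in knockout, without overlap (log2 fold change -0.30, SE 0.12, limma adjusted p = 0.044). Vars2 shares 8.5% of its exonic bases with a gene on the opposite strand, and reads from them cannot be told apart. The call was lost on removal of wild-type library 1, wild-type library 2 or knockout library 2 (limma adjusted p = 0.163, 0.214 and 0.109), with no filter (0.0843), and with length and GC trends removed, where the log2 fold change was -0.0044 (0.972). The 9 genes not called ran from -0.29 to 0.17 on the log2 scale. Cars2 (cysteine) was at 16.9 and 15.4 FPKM in wild type, against 12.8 and 13.7 in knockout, and Hars2 (histidine) at 12.4 and 10.5 and at 8.34 and 9.98. Both lay lower in each knockout library, at limma adjusted p of 0.0561 and 0.065. With equal column totals Cars2, Hars2 and Iars2 were called lower (log2 fold changes -0.51, -0.53 and -0.31). Hars2 and Hars lie head to head on opposite strands and share 195 exonic bases. Ears2, for glutamate, was higher in both knockout libraries (1.56 and 1.41 FPKM in wild type, 1.80 and 1.77 in knockout) and was not called (log2 fold change 0.17, limma adjusted p = 0.245).

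Placed beside the mitochondrial gene for the same amino acid, the cytosolic gene rose relative to it in most cases. The 18 pairs compared were the 14 amino acids with a gene of each kind, Eprs against Ears2 and against Pars2, and each subunit Farsa and Farsb against Fars2. Eprs and Fars2 each enter more than 1 pair, so the pairs are not independent. The ratio of cytosolic to mitochondrial FPKM was higher in both knockout libraries than in both wild-type libraries for 14 of 18 pairs, lower in 1 and overlapping in 3. The 14 include Lars over Lars2, at 0.0321 and 0.0429 in wild type and 0.0785 and 0.151 in knockout, where Lars stayed below Lars2. The share among other pairs of genes was not computed. Single genes lay higher without overlap in 43.6% of all genes tested. Such a ratio within a library does not depend on how the libraries are scaled. With 2 libraries against 2 an exact two-sided permutation test cannot give a p under 0.333, so no test of these ratios was made.

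The ratio of Sars to Sars2 was 4.79 and 4.93 in wild type, against 13.5 and 15.0 in knockout. Sars2 itself was at 6.04 and 5.77 FPKM in wild type, against 7.17 and 6.00 in knockout, with overlapping genotypes. The ratio of Nars to Nars2 was 25.2 and 21.4 in wild type, against 55.6 and 66.0 in knockout, with Nars2 at 1.77 and 1.95 FPKM in wild type, against 1.78 and 1.78 in knockout. Wars over Wars2 was 8.41 and 9.37 against 24.9 and 20.7, with Wars2 at 1.87 and 1.75 FPKM in wild type and at 1.57 and 2.05 in knockout. Aars over Aars2 was 4.26 and 4.31 against 9.01 and 11.0, with Aars2 at 7.53 and 6.63 FPKM in wild type and at 7.46 and 6.99 in knockout. For these 4 amino acids the mitochondrial gene was not called and the cytosolic gene rose. The ratio of Iars to Iars2 passed from 0.960 and 0.910 in wild type to 1.85 and 2.03 in knockout. In wild type the FPKM of the isoleucine genes were thus near parity. Iars2 shares 24.2% of its exonic bases with genes on the opposite strand, so reads from those stretches cannot be told apart.

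Besides phenylalanine, the amino acids for which both genes rose were tyrosine, threonine, arginine and methionine. The Tars to Tars2 ratio was 2.48 and 2.56 in wild type, against 3.38 and 3.73 in knockout. The Yars to Yars2 ratio was 3.37 and 2.75 in wild type, against 3.56 and 3.12 in knockout, with overlap. For phenylalanine, Farsa over Fars2 was 2.42 and 2.15 in wild type, against 1.69 and 1.56 in knockout, while Farsb over Fars2 was 1.06 and 1.12 and then 1.01 and 1.13. Fars2 and Farsb share 10.7% and 9.5% of their exonic bases with genes on the opposite strand. Reads from those stretches cannot be told apart.

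**Figure D4:**
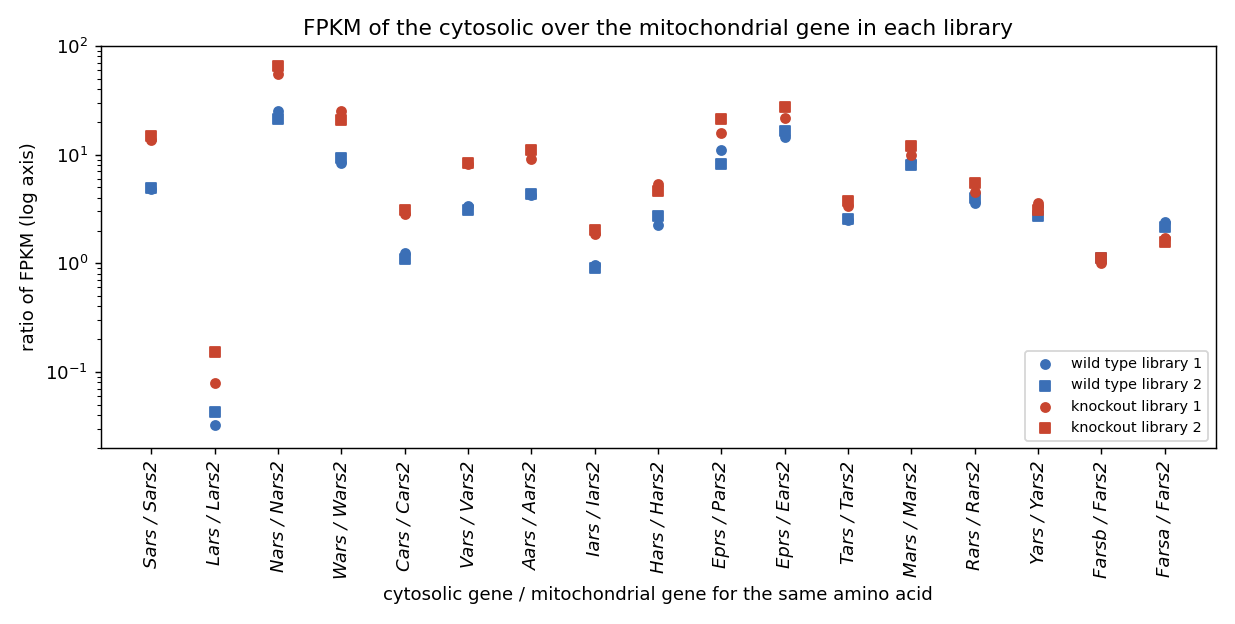
Ratio of the FPKM of the cytosolic gene to that of the mitochondrial gene for the same amino acid (log axis) in each library, for 17 of the 18 pairs, ordered by the difference of their log2 fold changes; blue is wild type, red is knockout. Both red points lie above both blue points in 14 pairs and below them in 1, Farsa with Fars2.

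Of 13 further listed genes of tRNA charging and delivery, 4 rose and 3 fell (median log2 fold change 0.08). These counts are close to the shares of all tested genes, 35.2% higher and 30.6% lower. Besides Eef1e1, the genes that rose included Xpot, the exporter of tRNA from the nucleus, at 13.7 and 12.8 FPKM in wild type, against 25.2 and 28.6 in knockout (log2 fold change 0.97, limma adjusted p = 6e-06), and Trnt1, which adds the CCA end to tRNA, at a log2 fold change of 0.60. Tarsl2, the paralog of Tars, was at 3.01 and 2.80 FPKM in wild type, against 1.78 and 2.53 in knockout, and was not called (log2 fold change -0.32, limma adjusted p = 0.0587). Elongation and termination factors of the cytosol rose in 9 of 10 cases (median 0.52), with Eif5a at 318 and 317 FPKM in wild type, against 683 and 682 in knockout.

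Genes that serve the mitochondrial ribosome did not share 1 pattern. Of 20 mitochondrial tRNA and translation factors, 8 rose and 1 fell (median 0.11), so that the share that rose was near the 35.2% of all tested genes. Pus1, which makes pseudouridine in tRNA, was at 7.14 and 6.60 FPKM in wild type, against 19.8 and 21.3 in knockout, and Tsfm, an elongation factor, rose by 1.17 on the log2 scale. Guf1, the mitochondrial relative of elongation factor 4, was the 1 that fell, from 8.13 and 8.62 FPKM to 4.69 and 4.90. Genes for proteins of the mitochondrial ribosome numbered 23 risers of 25 genes (median 0.59), and at equal totals their median was 0.34 and that of the mitochondrial synthetases -0.18.

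ATF4 targets outside the synthetase family were higher in the same libraries. Of 37 listed, 31 rose and 3 fell, with a median log2 fold change of 1.70. In wild type 32 of them averaged 1 FPKM or more, and the other 5 met the filter with the help of the knockout libraries. Among the 32, Trib3 needed that help as well, at 1.312 and 0.9908 FPKM in wild type. Asns, asparagine synthetase, was at 0.879 and 0.883 FPKM in wild type, against 63.2 and 75.1 in knockout. The 3 that fell were the glutamine transporter Slc1a5, the hormone gene Stc2 and the lipoprotein receptor Vldlr, named after their values were seen. Atf4 itself was at 121 and 117 FPKM in wild type, against 299 and 297 in knockout (log2 fold change 1.32, SE 0.09, limma adjusted p = 3.44e-08). Impact, which restrains the amino acid sensor kinase Gcn2, was at 11.0 and 12.2 FPKM in wild type, against 31.6 and 37.3 in knockout, and 5 of 10 genes of the eIF2 kinases and their partners rose, against 35.2% of all tested genes, with a median of 0.32 that was 0.07 at equal totals. The list of ATF4 targets was chosen with results of these data known, so its direction is no independent support.

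Across processing settings the cytosolic count stayed between 15 and 16 of 18 higher, with 0 lower in each, and the median ran from 0.71 to 1.10. The mitochondrial count ran from 4 to 6 higher and from 0 to 5 lower, with a median from -0.18 to 0.11. Scaling each library to the same total gave the lowest medians of both families.

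**Figure D5:**
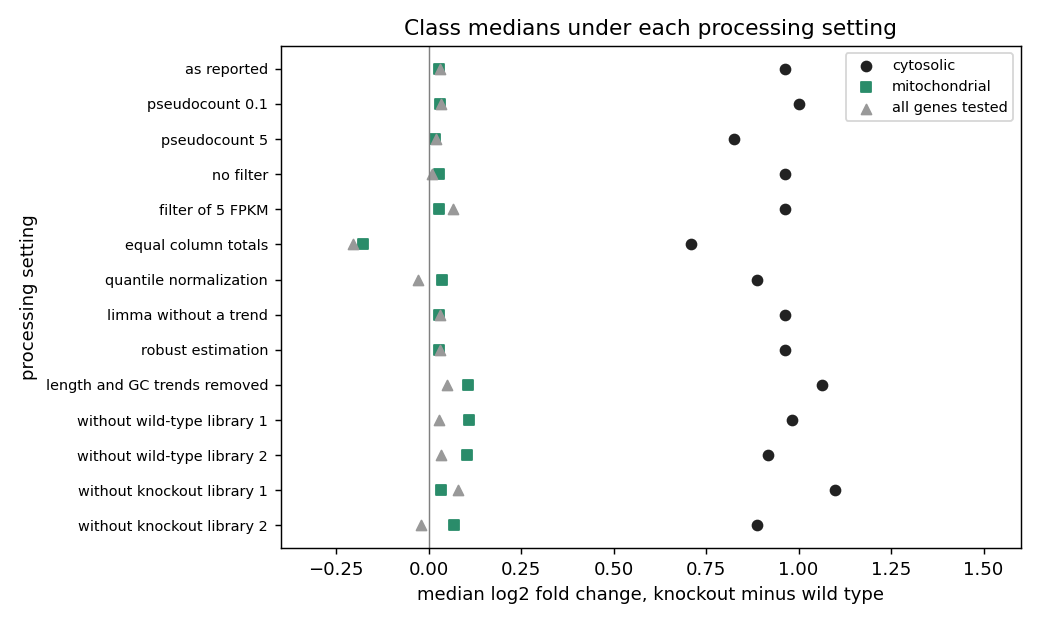
Median log2 fold change (knockout minus wild type) of the cytosolic genes (circles), the mitochondrial genes (squares) and all genes tested (triangles) under the reported setting and 13 alternatives. The circles lie between 0.71 and 1.10 under every setting, and the squares lie between -0.18 and 0.11, near the triangles.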

How the data were processed

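Sequencing libraries were grouped by the genotype label. Per the file headers, the deposited values are FPKM, 1 file per library, with the unit misspelt. Per the submitters' processing notes, the build was mm10 and the tools were DESeq2 1.16.1, featureCounts 1.5.0-p3 and HISAT2 2.0.5, with no roles given. The program that made FPKM and the strand setting are not given in the sources used here. From these values, log2(FPKM + 1) was fitted by limma 3.58.1 in R 4.3.3, using an intensity trend, over the 12314 genes at 1 FPKM or more in at least 2 libraries, with Benjamini-Hochberg adjustment over them all and a threshold of 0.05. Each gene had 2 residual degrees of freedom of its own, and 13.4 in total after limma's pooling over genes. The procedure was also run on simulated data with independent noise and far fewer changed genes than were called here. That run does not show how the procedure behaves where most genes are called. Nothing says that libraries came from separate animals, so the p-values reflect only the spread among these libraries, which may be technical. Folds of named genes are ratios of mean FPKM.

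Positions, exon counts and overlaps came from GENCODE M21 (GRCm38) and promoters from RefSeq. For 1 member, which stays in the counts and medians, and for the promoter stretches of Aars, individual results are not reported here. The members and lists were chosen with earlier results of these data known. Values per library are given for the 8 members with the smallest p, their counterparts, members called lower, Gars, Kars, Farsa, Farsb, the scaffolds and Lars2, and for other members where a comparison needed them. From each other list, genes were taken from the 4 called with the smallest p, and other genes were named after their values were seen. The alternatives were other pseudocounts (0.1 and 5), filters, scalings and limma settings, removal of length and GC trends (96.3% of tested genes had both), and leaving out each library in turn.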

Additional observations from a re-analysis of the deposited data

How the results depend on the processing

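Of the 27 members called, 21 kept direction and call in every alternative run, 6 lost the call in at least 1 (among them Farsa, Rars2, Mars2, Lars2 and Vars2) and 0 changed direction. The count of mitochondrial genes lower, 2 as reported, was 0 with no filter, 5 with equal column totals and 4 with quantile normalization, and it ran from 0 to 2 when 1 library was left out. With a library left out, cytosolic genes higher numbered 15 to 16 and mitochondrial genes higher 4 to 5. Changes of direction were confined to 9 members that were not called. With equal column totals these were Aars2 (-0.20), Aimp2 (-0.082), Dars (-0.077), Qars (-0.13) and Sars2 (-0.096). With length and GC trends removed they were Aimp2 (-0.18), Dars (-0.080), Iars2 (0.16) and Wars2 (0.11). Leaving out 1 library in turn gave -0.054 to 0.11 for Aars2, -0.16 to 0.032 for Iars2, -0.084 to 0.0071 for Nars2, -0.20 to 0.14 for Pars2 and -0.13 to 0.12 for Wars2. Of the members not called, 4 passed the threshold in at least 1 alternative (Aimp2, Cars2, Hars2 and Iars2). When a genotype is left with 1 library, that library is assumed to vary like the others. A filter of 5 FPKM left 11 of the 17 mitochondrial genes. No paired analysis was possible because the labels number the libraries 1 to 4 and share no number between genotypes. Depth is unknown, which leaves the members under 3 FPKM with no counting interval.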

Other observations

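Phenylalanyl-tRNA synthetase of the cytosol is built from equal numbers of its subunits, encoded by Farsa and Farsb. The ratio of Farsa to Farsb FPKM was 2.29 and 1.91 in wild type and 1.68 and 1.38 in knockout, lower in both knockout libraries. Farsb shares 9.5% of its exonic bases with a gene on the opposite strand, and reads from them cannot be told apart. Aimp1 over Aimp2 was 1.18 and 1.20 in wild type and 1.85 and 1.56 in knockout. Both ratios are within a library and do not depend on scaling between libraries.

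The knockout libraries differed from each other in 1 direction for most cytosolic synthetases: 15 of 18 were higher in knockout library 2, with a median ratio of 1.17, and 14 of 18 with equal column totals. Of all genes tested, 70.3% were higher in knockout library 2, with a median ratio of 1.08, and 62% were higher in it with equal column totals. The difference from these shares was not tested. Sars and Vars were lower in it (ratios 0.926 and 0.917) and Farsa was level (0.9995). Of the 10 macrophage markers called higher, 2 were higher in knockout library 2, as were 4 of the 10 leukocyte markers called higher. These markers were selected by their call, some met the filter only with the knockout libraries, and their relation to the synthetase values was not tested.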
